A study of Homo sapiens with 6 samples.

Results

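The SR splicing factors examined were 10 genes, SRSF1, SRSF2, SRSF3, SRSF4, SRSF5, SRSF6, SRSF7, SRSF9, SRSF10 and SRSF11. They were chosen by symbol as classical and related SR proteins and not by their values, though with earlier results of these data known. All 10 were present among the 16444 genes of the authors' spike-in table. In the table of transcripts they held 22 of 18750 transcripts, in 10 of 12097 genes. RNA had been taken from the multiple myeloma line KMS-27, which is human and labelled as bone marrow, after silencing of Che-1 (siChe-1) or in the control (siControl), as the titles name them. Che-1 is the protein of AATF, which binds RNA polymerase II. Each group had 3 libraries of ribosome-depleted total RNA, made with a stranded kit from 500 ng. A single line was used, and the labels give neither the time after silencing nor the siRNA sequences. Nor do they state separate cultures for the libraries of 1 group, and p-values here reflect the spread of these libraries alone, possibly a technical one. A mix of external RNAs of known sequence (ERCC spike-ins) had been added, at a step and in an amount that the labels do not give.

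SR proteins bind exonic enhancer sequences in pre-mRNA through RNA recognition motifs and recruit the spliceosome through a tail of arginine-serine repeats. Kinases of the SRPK and CLK families phosphorylate this tail and so set where in the cell the proteins are and whether they act. Most SR genes also limit their own output: the protein favours an mRNA form with a premature stop codon, which nonsense-mediated decay then removes.

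Such forms were among the transcripts measured here. Of the 22 transcripts, 20 matched a GENCODE 29 transcript by their RefSeq identifier, 16 of them typed as protein coding and 4 as targets of nonsense-mediated decay, 1 each in SRSF1, SRSF2, SRSF3 and SRSF6. The stretches below set a measured form apart from the main form of its gene and carry the stop codon that ends its reading frame, so they show what the transcript values further on tell apart. They are read from GENCODE 29 on GRCh38, 5′ to 3′ on the gene's strand, with the stop codon in capitals.
SRSF3 NR_036610, first bases of the extra exon: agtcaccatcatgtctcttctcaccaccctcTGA
SRSF6 NR_034009, first bases of the extra exon: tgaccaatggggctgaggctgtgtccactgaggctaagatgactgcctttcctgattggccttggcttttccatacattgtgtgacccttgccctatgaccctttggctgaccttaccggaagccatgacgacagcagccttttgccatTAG
SRSF1 NM_001078166, first bases of the kept intron: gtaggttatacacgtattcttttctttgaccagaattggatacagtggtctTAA

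The SRSF3 stretch lies at chr6:36599821-36599854 on the plus strand, at the start of a 456-base exon that NM_003017 skips. With it the reading frame codes for 124 residues in place of 164. The SRSF6 stretch lies at chr20:43459153-43459304 on the plus strand, in a 268-base exon that NM_006275 skips, and shortens the coded protein from 344 to 135 residues. The SRSF1 stretch lies at chr17:58005747-58005800 on the minus strand, in an intron that NM_006924 removes and NM_001078166 keeps. It replaces the end of the coding part, so that 201 residues are coded in place of 248, and GENCODE types this form as protein coding. The SRSF2 forms shared 1 stop codon and differed outside the coding part, so no stretch is shown for them.

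The spike-in table rested on 5 libraries, siControl 1 to 3 and siChe-1 1 and 2, with 21104395 to 24165700 recovered gene reads each. Spike-in reads were 351573 to 519573 in siControl, 835414 and 1041244 in siChe-1 1 and 2, and 379232 in siChe-1 3, within the range of siControl. The gene reads of siChe-1 3 were not analysed here, so every value against the spike-ins comes from the 2 siChe-1 libraries whose spike-in reads were high. AATF was low in all silenced libraries: 7157, 9855 and 10905 spike-in-normalized reads in siControl against 672 and 549 in siChe-1, and 93.9, 88.8 and 112 FPKM against 14.9, 14.8 and 17.2. Plasma cell markers were present, 10 of 10 with a siControl mean of at least 10 spike-in-normalized reads, with a summed FPKM of 7334 to 10739 in siControl and 8699 to 12187 in siChe-1. T cell markers summed to 0.413 to 0.638 FPKM in siControl and 0.363 to 0.730 in siChe-1, erythroid markers to 0.203 to 0.693 and 0.0613 to 0.123. Each of these sums held 1 listed gene of 5, and myeloid, stromal and epithelial markers were not listed in FPKM. A siControl mean of at least 10 spike-in-normalized reads was reached by 1 of 5 T cell and 2 of 5 myeloid markers. It was also reached by 0 of 5 erythroid, 1 of 5 stromal and 2 of 5 epithelial markers. Summed siControl means were at most 62.5 in these lists, against 447079 for plasma cell markers.

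Against the spike-ins, which stand for the amount of RNA per spiked molecule, all 10 SR genes were lower in siChe-1 than in any siControl library. Their siChe-1 means were 0.318 to 0.472 of the siControl means, with SRSF1, a splicing activator and proto-oncogene, at the low end and SRSF5 at the high end. They shared this with most genes, since 89.5% of the 12546 tested were also lower with no overlap between libraries. Fewer cells and less RNA per cell cannot be told apart in such bulk samples, and neither can a difference in the spike-in amount added. Gene reads per spike-in read, the scale all genes share, were 43.0, 62.7 and 64.2 in siControl against 25.3 and 21.4 in siChe-1.

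SRSF1 had 24604, 34461 and 35425 spike-in-normalized reads in siControl (31497 ± 5988, SD, n = 3) and 10506 and 9537 in siChe-1. Both siChe-1 libraries measured on this scale lay below the lowest control by a wide margin. The change was -1.65 ± 0.32 (log2, SE; edgeR's quasi-likelihood test, adjusted p = 4.32e-06). All genes share 1 spike-in size factor per library, so its error enters every gene and is not estimated anew in each. With only 5 libraries, the p-values on the spike-in scale are therefore likely too small. SRSF3, the smallest SR protein and an adaptor for mRNA export, had 13916, 18883 and 20281 reads in siControl and 6500 and 5393 in siChe-1, a change of -1.57 ± 0.32 (edgeR adjusted p = 9.38e-06). SRSF2, a nuclear factor that is mutated in myeloid neoplasms, had 8276, 13117 and 14012 reads in siControl and 4500 and 3704 in siChe-1, a change of -1.52 ± 0.32 (edgeR adjusted p = 1.50e-05). In each of these genes siControl 1 was the lowest control, as it was in gene reads per spike-in read.

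SRSF6, whose reads lay between those of SRSF3 and SRSF2 by mean, had 10933, 15189 and 15278 in siControl against 5956 and 4898 in siChe-1. Its log2 change was -1.35 ± 0.32 (SE). SRSF4, a long SR protein with an extended arginine-serine tail, had 4650, 5298 and 6171 reads against 2476 and 1668, a change of -1.37 ± 0.32. SRSF7, a zinc-knuckle SR protein that works with SRSF3 in mRNA export, had 4727, 7241 and 7061 reads against 2534 and 2142, a change of -1.44 ± 0.32.

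SRSF9, a short SR protein related in build to SRSF1, had 2947, 4570 and 4391 spike-in-normalized reads in siControl and 1690 and 1373 in siChe-1, a log2 change of -1.37 ± 0.33 (SE). SRSF11, an SR-related protein, had 5360, 6888 and 8254 reads against 2778 and 2203, a change of -1.46 ± 0.32. SRSF10, which turns into a general splicing repressor when dephosphorylated, had the fewest reads, 271, 428 and 410 against 146 and 130. Its change of -1.42 had the largest error among the members, 0.39 (SE). SRSF5, a factor known to respond to insulin and growth signals, changed least: 5868, 9996 and 8614 reads in siControl against 3880 and 3822 in siChe-1, or -1.08 ± 0.31 (edgeR adjusted p = 0.00112).

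edgeR called all 10 members lower at an adjusted p of 0.05, where 84% of the 12546 genes tested were called lower. The authors' deposited table likewise gave all 10 members as lower, with adjusted p from 0.000814 (SRSF1) to 0.0283 (SRSF5), where 63.5% of 12591 genes with a mean of 10 or more were lower. The median change of the members was -1.43 and that of all genes tested -1.25. Relative to that general shift, 9 of the 10 members lay below the median gene and SRSF5 lay above it. Without siChe-1 replicate 2, edgeR called 7 of 10 lower. That fit holds 1 siChe-1 library, which is assumed to vary like siControl, since the spread then comes from the controls alone. SRSF4 (adjusted p = 0.0598), SRSF5 (0.0636) and SRSF10 (0.0689) were the members lost, and across all genes the calls of lower levels fell from 10541 to 3642. With the gene reads themselves as the scale, as described next, 2 of 10 members were called.

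**Figure D1:**
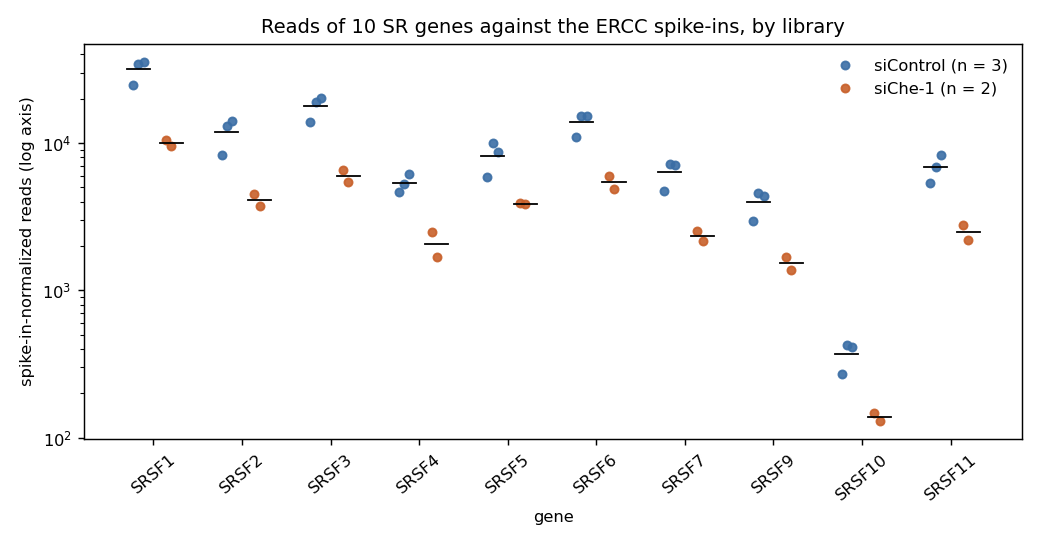
Spike-in-normalized reads (vertical axis, log scale) of the 10 SR genes (horizontal axis), with 1 point per library for siControl (n = 3) and siChe-1 (n = 2) and bars at the means. Both siChe-1 libraries lie below all siControl libraries in each gene, from SRSF1 (10506 and 9537 against 24604 to 35425) to SRSF10 (146 and 130 against 271 to 428).

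Relative to the other genes, most of that fall was not seen, and what remained was uneven among the members. With the same 5 libraries rescaled on the genes by edgeR's trimmed mean of M-values (TMM), the median change of all genes was -0.00061 and that of the members -0.18. SRSF1 and SRSF3 were called lower, 2 of 10, where 15% of the 12546 genes tested were called lower, and no member was called higher, where 14.5% of genes were. A share near the background is no result about the group.

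SRSF1 had 23085, 21350 and 22635 TMM-scaled reads in siControl and 16200 and 17529 in siChe-1. Its groups were far apart compared with their spread, and the change was -0.41 ± 0.11 (log2, SE; edgeR adjusted p = 0.0115). SRSF3 had 13057, 11699 and 12959 reads against 10023 and 9911, a change of -0.33 ± 0.11 (edgeR adjusted p = 0.0310). SRSF2 had 7765, 8127 and 8953 reads against 6939 and 6808, a change of -0.27 ± 0.11 that missed the threshold (edgeR adjusted p = 0.0768). Some of these calls were lost when a control was left out. Without siControl replicate 3 neither SRSF1 (edgeR adjusted p = 0.0526) nor SRSF3 (0.125) was called, and without siControl replicate 1 SRSF3 was not (0.0959). With 1 siChe-1 library left, whose spread is again taken from the controls, SRSF1 had an edgeR adjusted p of 0.0890 without siChe-1 1, and SRSF3 had 0.0971 without siChe-1 1 and 0.121 without siChe-1 2. Without siControl replicate 2, 4 members were called lower, SRSF2 (edgeR adjusted p = 0.0475) and SRSF11 (0.0262) in addition. Across all genes, 2149 of 12429 were called lower in that fit. The numbers were 1339 of 12477 without siControl replicate 3 and 1686 of 12583 without siControl replicate 1.

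SRSF5 was the member with the opposite sign on this scale. Its TMM-scaled reads were 5506, 6193 and 5504 in siControl against 5983 and 7024 in siChe-1, with overlap between the groups, and the change of 0.18 ± 0.11 did not pass the test (edgeR adjusted p = 0.247). The other 6 members had changes from -0.22 (SRSF11) to -0.11 (SRSF6), none of them called. In all, 7 of 10 members (SRSF1, SRSF2, SRSF3, SRSF6, SRSF7, SRSF9 and SRSF10) were lower in both siChe-1 libraries than in all siControl libraries, where 26.2% of the genes tested were. SRSF7, for example, had 4435, 4486 and 4512 reads in siControl and 3907 and 3936 in siChe-1.

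FPKM values (fragments relative to transcript length and library size) cover all 6 libraries, siChe-1 3 included, though the lists do not say which value belongs to which library. After summing the transcripts of a gene and rescaling the libraries on the 6285 genes that averaged 10 FPKM or more, 9 members could be tested. SRSF10 could not: its 3 transcripts were listed only on a chromosome 1 scaffold outside the assembled chromosome, with the authors' group FPKM between 0.586 and 1.33. As a level per length, SRSF1 stood highest in siControl with 266 ± 23.1 FPKM (SD, n = 3), followed by SRSF2 (242 ± 11.3) and SRSF3 (230 ± 16.2). Their siControl values overlapped, so that the order among these 3 is within their spread. SRSF9 (138 ± 3.29), SRSF5 (130 ± 10.6) and SRSF6 (130 ± 8.71) formed a middle group that also overlapped, then came SRSF7 (93.5 ± 4.97), SRSF11 (72.0 ± 12.0) and SRSF4 (63.1 ± 6.66). SRSF11 and SRSF4 overlapped, while SRSF7 lay above both and below the middle group in every siControl library.

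None of the 9 members passed limma's test at an adjusted p of 0.05 in either direction, where 15.1% of the 6285 genes were called lower and 15.1% higher. At an unadjusted p of 0.05, 3 passed, SRSF1 and SRSF2 with a lower level and SRSF5 with a higher one. The share of all genes below that p is not given here, so this count is no result about the group. The split of all calls depended on the scaling. It was 949 higher and 948 lower on the scale used, 592 and 1279 with the FPKM as deposited, 634 and 1211 with the median of ratios over all genes, and 1227 and 715 with the upper quartile. SRSF2 was the 1 member called lower with the FPKM as deposited (limma adjusted p = 0.0442) and without a minimum (0.0499).

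SRSF2 had 245, 230 and 252 FPKM in siControl and 213, 202 and 200 in siChe-1, with no overlap, and a change of -0.24 ± 0.09 (log2(FPKM + 1), SE; limma adjusted p = 0.0784). SRSF1 had 293, 257 and 249 FPKM in siControl and 235, 207 and 229 in siChe-1, a change of -0.25 ± 0.11 (limma adjusted p = 0.109). SRSF3 had 248, 223 and 218 against 214, 177 and 190, a change of -0.25 ± 0.11 (limma adjusted p = 0.122). All siChe-1 values of these 3 genes lay below all siControl values, though in SRSF3 the nearest pair was 218 and 214. With SRSF9, 4 of 9 members were lower without overlap, where 22.8% of all genes tested were.

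SRSF5 again had the opposite sign: 131, 141 and 119 FPKM in siControl against 168, 164 and 139 in siChe-1, a change of 0.27 ± 0.11 (limma adjusted p = 0.108). The lowest silenced value fell just under the highest control, so the groups overlapped. SRSF9 was the tightest member, with 135, 137 and 141 FPKM against 132, 128 and 132, a change of -0.08 ± 0.08 (limma adjusted p = 0.512). SRSF6 had 138, 131 and 121 against 138, 122 and 134 and changed by 0.01 ± 0.10, less than its error.

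SRSF7 had 97.7, 94.9 and 88.0 FPKM in siControl and 92.5, 81.2 and 76.3 in siChe-1, a change of -0.17 ± 0.10 (limma adjusted p = 0.243). SRSF11 had 77.1, 58.3 and 80.5 against 78.0, 55.7 and 72.2, and SRSF4 had 68.2, 55.6 and 65.6 against 64.5, 55.1 and 58.4. In SRSF11 1 value of each group was low. The changes of SRSF11 and SRSF4, -0.07 ± 0.16 and -0.09 ± 0.11, were smaller than their errors. In TMM-scaled reads, where libraries are known, siControl 2 was the lowest of 3 controls for SRSF4 (3283 reads) and SRSF11 (4268 reads). There siChe-1 2 was the lower of only 2 silenced libraries (3066 and 4049 reads).

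**Figure D2:**
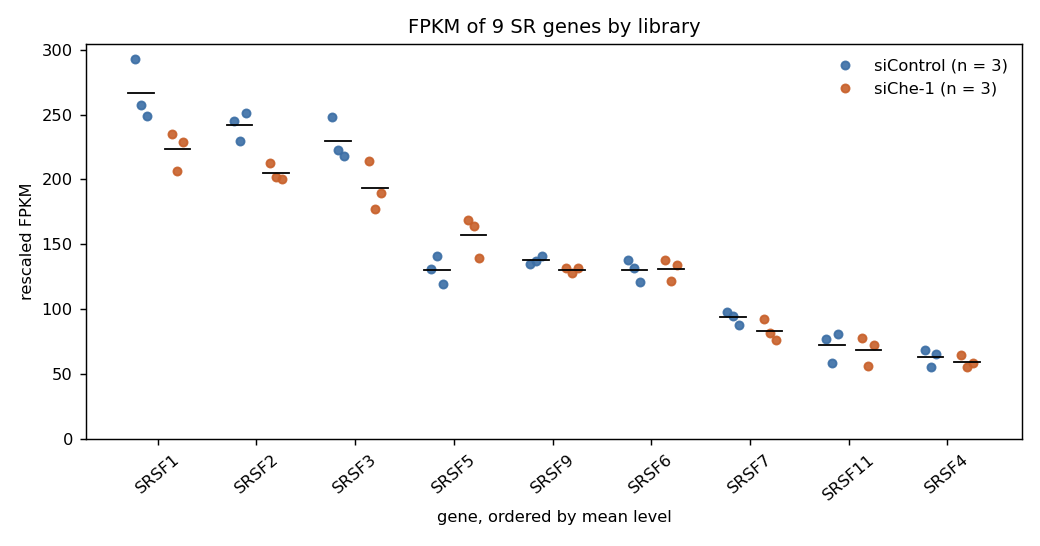
Rescaled FPKM (vertical axis) of the 9 SR genes tested (horizontal axis, ordered by mean level), with 1 point per library (n = 3 per group) and bars at the means. SRSF1, SRSF2 and SRSF3 are the highest and lie lower in siChe-1 without overlap, SRSF5 lies higher in siChe-1 with overlap, and SRSF6 has means of 130 and 131.

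**Figure D3:**
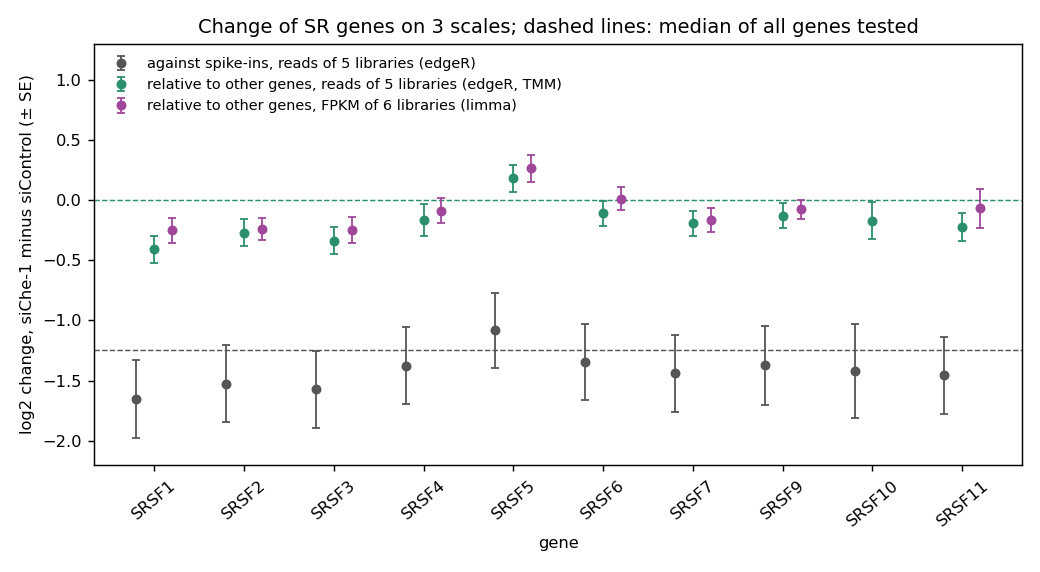
Change of each SR gene from siControl to siChe-1 (vertical axis, log2, with SE bars) on 3 scales: reads against the spike-ins, reads against other genes (TMM), and FPKM against other genes. Dashed lines mark the median of all genes tested on the spike-in scale (-1.25) and on the TMM scale (-0.00061). On both scales of reads SRSF5 sits above the line of that scale and every other member below it. SRSF10 has no FPKM value.

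At the level of transcripts, the main coding forms of SRSF1, SRSF2 and SRSF3 were lower in all siChe-1 libraries than in any siControl library, while the changes of the 4 forms typed for nonsense-mediated decay were smaller than their errors. With SRSF9 NM_003769 (135, 137 and 141 FPKM against 132, 128 and 132), 4 of 19 SR transcripts were lower without overlap, where 14.3% of all 15089 transcripts tested were. Of the 19 SR transcripts with a mean FPKM of at least 1, limma called none, where 10.3% of 15089 transcripts were called in either direction. Without adjustment, 3 had a p below 0.05, a count given without the share of all transcripts, namely the main forms of these 3 genes. The authors' deposited table of transcripts gave the same 3 as lower at a q of 0.05, 3 of 22, where 10.2% of its 18750 transcripts were lower.

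For SRSF1, the main form NM_006924 had 207, 184 and 182 FPKM in siControl and 159, 128 and 155 in siChe-1. All silenced values lay below the controls, with a change of -0.38 ± 0.11 (log2(FPKM + 1), SE; limma adjusted p = 0.0820). The authors' deposited table gives it as 197 and 143 FPKM, a log2 ratio of -0.47 with q = 0.0142. The form with the kept intron, NM_001078166, had 68.2, 51.4 and 48.9 FPKM against 57.8, 57.2 and 55.2, with overlap and a change of 0.03 ± 0.13. NR_034041, the form typed for decay, was low and scattered, between 7.23 and 15.3 FPKM in siControl and between 4.13 and 16.0 in siChe-1. A further assembled form of SRSF1 with no RefSeq identifier had 3.83 to 10.5 FPKM in siControl and 1.86 to 14.4 in siChe-1.

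For SRSF2, NM_001195427 had 186, 156 and 184 FPKM in siControl and 148, 130 and 136 in siChe-1, with no overlap (change -0.34 ± 0.10, limma adjusted p = 0.0823). The authors' deposited table gives it as 181 and 134 FPKM, a log2 ratio of -0.44 with q = 0.0408. NM_003016, which encodes the same protein, had 48.7, 57.8 and 55.1 FPKM against 52.1, 57.8 and 50.6 and changed by -0.01 ± 0.09. The form typed for decay, NR_036608, had 10.7, 15.4 and 12.3 FPKM against 12.1, 13.6 and 13.4.

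For SRSF3, the coding form NM_003017 had 180, 173 and 161 FPKM in siControl and 158, 127 and 131 in siChe-1 (change -0.31 ± 0.11, limma adjusted p = 0.117). The groups did not overlap, and the authors' deposited table gives 177 and 134 FPKM, a log2 ratio of -0.40 with q = 0.0443. NR_036610, whose extra exon is printed above, had 68.0, 49.4 and 56.9 FPKM against 56.2, 49.8 and 59.3, with overlap and a change of -0.07 ± 0.13. It was the most abundant of the 4 forms typed for decay, at 58.1 ± 9.34 FPKM in siControl (SD, n = 3).

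In SRSF6, a factor known for its role in tau and other alternative exons, both forms changed by less than their errors. The coding form NM_006275 had 112, 102 and 90.7 FPKM in siControl and 112, 95.0 and 105 in siChe-1. NR_034009, with the other extra exon printed above, had 25.9, 29.6 and 30.1 FPKM against 26.0, 26.8 and 28.4, a change of -0.07 ± 0.09 (limma adjusted p = 0.657). Both SRSF5 forms had positive changes, 0.25 ± 0.12 for NM_006925 (110, 111 and 102 FPKM against 144, 136 and 108) and 0.31 ± 0.20 for NM_001039465 (20.6, 29.9 and 17.6 FPKM against 24.7, 27.5 and 31.1), and neither passed limma's test. The remaining transcripts, of SRSF4, SRSF7, SRSF9 and SRSF11, had changes from -0.20 to 0.01.

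**Figure D4:**
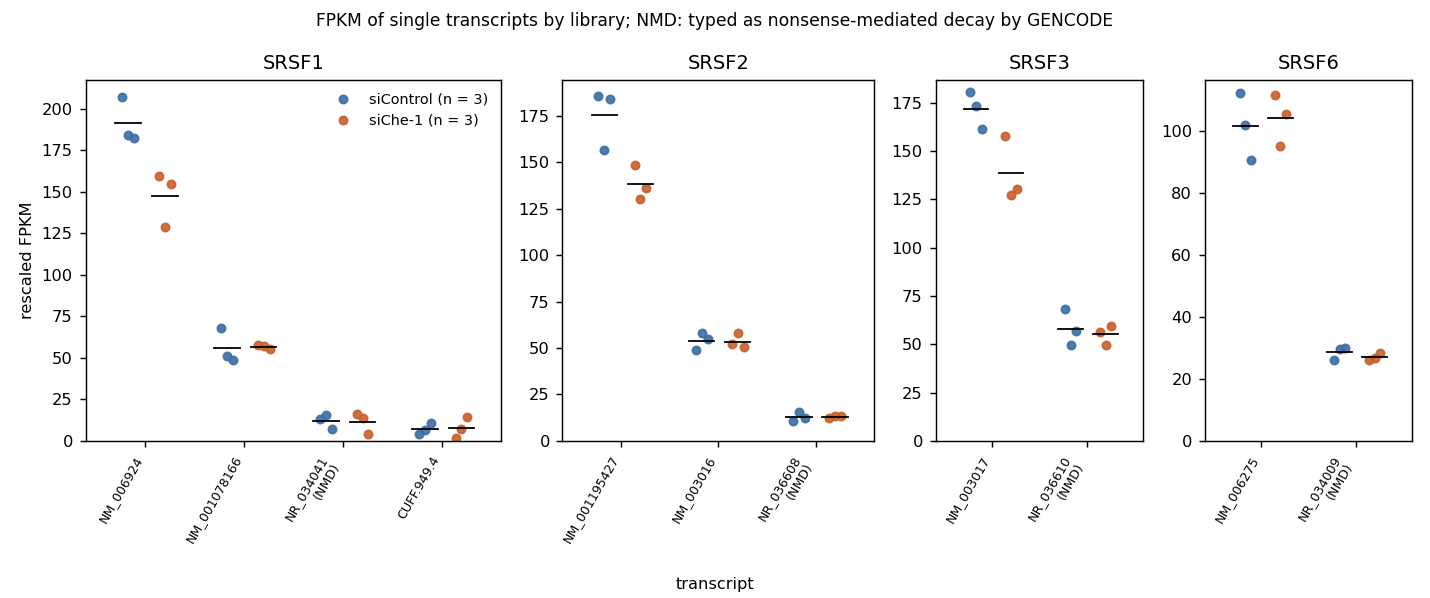
Rescaled FPKM (vertical axes) of the transcripts of SRSF1, SRSF2, SRSF3 and SRSF6 (horizontal axes, 1 panel per gene), with 1 point per library (n = 3 per group) and bars at the means. The main forms NM_006924, NM_001195427 and NM_003017 lie lower in siChe-1 without overlap, and the forms marked NMD overlap between the groups.

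Whether the forms of a gene changed unequally was tested directly with limma's diffSplice, which sets each transcript against the others of its gene. None of 17 transcripts in 7 SR genes passed, where 1.14% of 7398 transcripts did. Without adjustment 1 had a p below 0.05, a count given without the share of all transcripts. That one was NM_001195427 of SRSF2, at -0.35 ± 0.14 against the other SRSF2 forms (log2, SE; limma adjusted p = 0.337). The lower main forms beside the decay-typed forms are therefore a description of single transcripts, with no tested difference between forms that passed.

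As shares of a gene's FPKM, NM_006924 made up 70.8%, 71.5% and 73.2% of SRSF1 in siControl and 67.8%, 62.2% and 67.7% in siChe-1. The form with the kept intron made up 23.3%, 20.0% and 19.6% of SRSF1 against 24.6%, 27.7% and 24.1%. Neither share overlapped between the groups, but shares of 1 gene depend on each other. How often shares of other transcripts failed to overlap was not counted. diffSplice gave NM_006924 an adjusted p of 0.941 with a SE of 0.56, which it takes over all 4 forms of the gene. Main-form shares of SRSF2 (75.7%, 68.1% and 73.2% against 69.8%, 64.6% and 68.0%) overlapped. So did those of SRSF3 (72.6%, 77.8% and 73.9% against 73.7%, 71.9% and 68.8%). The decay-typed form of SRSF3 made up 25.2% ± 2.71 of the gene in siControl against 28.5% ± 2.50 in siChe-1 (SD, n = 3), and that of SRSF6 22.1% ± 3.09 and 20.7% ± 1.59. In SRSF2 the decay-typed form made up 5.32% ± 1.23 and 6.38% ± 0.58, and in SRSF1 4.47% ± 1.53 and 5.13% ± 2.88. Each of these 4 shares overlapped between the groups. The sequencing depth behind single FPKM values is unknown, so these shares carry no counting interval.

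The SR genes differed in how they followed each other across the 6 libraries. Correlated with the mean profile of the 9 members in log2(FPKM + 1), SRSF3 reached a Pearson r of 0.94, SRSF1 0.87, SRSF4 0.87 and SRSF7 0.82. SRSF2 (0.74) and SRSF11 (0.71) came next. SRSF9 (0.56) and SRSF6 (0.54) followed the mean profile loosely and SRSF5 ran against it (-0.38). Each member is part of that mean, and all points share library and treatment, so these values only describe. Among 6276 other genes the nearest profiles were those of SH3BGRL2 (0.99), CHEK1 (0.98), NSUN4 (0.98), RARS (0.98) and KRR1 (0.98). Of these other genes, 151 had an r above 0.9, so such a likeness was not particular to the genes named.

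Among the kinases, phosphatase and import factors of SR proteins, limma on FPKM called 1 of 11 lower and none higher, where 15.1% of all genes were called in each direction. That gene was SRPK1, the kinase that phosphorylates SR proteins in the cytoplasm, at 89.2, 80.9 and 85.6 FPKM in siControl against 52.3, 47.4 and 52.4 in siChe-1. Its groups stood wide apart, with a change of -0.74 ± 0.08 (log2(FPKM + 1), SE; limma adjusted p = 0.00134). SRPK2, its close relative and the most abundant of the list, changed by 0.04 ± 0.08 (limma adjusted p = 0.757). On the spike-in scale SRPK1 changed by -2.13, beyond each of the 10 SR genes.

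Among 24 tested genes for other SR and SR-like proteins, 1 fell and 2 rose relative to other genes on FPKM (15.1% of all genes each way). Their median change was -0.02 against -0.004 for all genes. U2AF2, which binds the polypyrimidine tract at the 3′ splice site, fell by 0.37 on the log2 scale (limma adjusted p = 0.0196). LUC7L3, a U1-associated protein, rose from 78.2, 70.5 and 95.1 FPKM to 129, 112 and 129 (limma adjusted p = 0.0121), and SON, a scaffold of nuclear speckles, rose by 0.26 (limma adjusted p = 0.0444). On TMM-scaled reads SON was not called (0.13, edgeR adjusted p = 0.392). RBM39, the most abundant of the list, changed by -0.01 (limma adjusted p = 0.978).

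Of 25 hnRNP genes, whose proteins often oppose SR proteins at splice sites, 2 fell and 1 rose, shares below the 15.1% of all genes called each way, with a median change of -0.11. HNRNPF fell by 0.43 (limma adjusted p = 0.0116), HNRNPC fell by 0.47 (limma adjusted p = 0.0481) and HNRPLL rose by 0.32 (limma adjusted p = 0.0213), the latter not called on TMM-scaled reads (0.24, edgeR adjusted p = 0.146). HNRNPA1, a known antagonist of SRSF1 and the most abundant of the list, changed by 0.01 (limma adjusted p = 0.959). Among 14 tested genes of nonsense-mediated decay, the path that degrades the forms with early stops, 1 fell, EIF4A3 of the exon junction complex (-0.35, limma adjusted p = 0.0120), and the median was 0.08. NCBP2, a subunit of the cap-binding complex and the most abundant of that list, changed by -0.29 (limma adjusted p = 0.0853). On TMM-scaled reads NCBP2 was called lower (-0.40, edgeR adjusted p = 0.0105).

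Of 11 tested genes for mRNA export and translation partners, 4 fell and none rose (15.1% of all genes each way), with a median of -0.07. The genes that fell were THOC5 (-0.33), ALYREF (-0.37), NXT1 (-0.35) and DDX39A (-0.28), all parts of the mRNA export machinery. DDX39A was not called on TMM-scaled reads (-0.29, edgeR adjusted p = 0.0569). Among 7 tested genes whose splicing is known to depend on SR proteins, PKM2 (-0.54, limma adjusted p = 0.00649) and RPS6KB1 (-0.43, limma adjusted p = 0.0215) fell and MCL1 rose (0.31, limma adjusted p = 0.0385), the last not called on TMM-scaled reads (0.20, edgeR adjusted p = 0.182). These are gene levels and say nothing of the splice forms of these targets. Against the spike-ins, each of these 6 lists had most tested members called lower, where 84% of all genes were. Counts were 26 of 26 for SR-like proteins, 11 of 11 for kinases, 25 of 25 for hnRNP and 16 of 17 for decay. They were 12 of 12 for export and 8 of 11 for targets. The rises named above are thus relative to other genes. Against the spike-ins LUC7L3 changed by -0.73, SON by -1.10, HNRPLL by -1.02 and MCL1 by -1.04. On TMM-scaled reads, 15% of all genes were called lower and 14.5% higher. There 4 of 26 SR-like genes were called lower and 1 higher, 1 of 11 kinases and none, and 4 of 25 hnRNP genes and 1. For decay it was 3 of 17 lower and 1 higher, for export 3 of 12 and none, and for targets 1 of 11 and 1. Whether any list departed from the share of all genes was not tested.

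On hg19, the authors' build, the loci in the table of transcripts were chr17:56078280-56084707 (minus strand) for SRSF1, chr6:36562090-36572244 (plus) for SRSF3, chr14:70233000-70238722 (plus) for SRSF5, chr20:42086504-42092244 (plus) for SRSF6 and chr2:38970741-38978636 (minus) for SRSF7. The SRSF2 locus, chr17:74730197-74775336, also spans MFSD11 on the other strand, the SRSF9 locus, chr12:120884241-120907558, GATC, and the SRSF5 locus LOC100289511, so reads from where such genes overlap can be told apart only by strand, and no source used here says if counting was strand-specific. RefSeq lists 13 pseudogenes for 7 of the 10 members, all but SRSF4, SRSF5 and SRSF7, and reads shared with such copies make the levels of these 7 genes less certain.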

How the data were processed

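KMS-27 libraries were grouped by their titles. The deposited spike-in table holds, per the file headers, the authors' signal (reads divided by spike-in size factors, averaged by group), a fold change (ratio), its log2 and p-values. Raw spike-in counts are per the file headers. The deposited transcript table holds the authors' group FPKM, 3 FPKM values per group without replicate number, a log2 ratio and p- and q-values. TopHat, Cufflinks, Cuffdiff, HTSeq and DESeq2 on hg19 are named in the submitters' processing notes without roles.

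Whole reads per library were recovered from the authors' group means, which weigh siControl by 0.6. For 57 distinct low values, 100% came out as whole reads when siChe-1 replicates 1 and 2 were taken as its libraries and 0% under each other choice. Of 16444 genes, 16399 (99.7%) gave 1 set of whole reads, all 10 SR genes included. They account for 89% of normalized reads in siControl and 89.3% in siChe-1. At these depths every SR gene had 218 or more reads in a library.

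Reads were tested with edgeR 4.0.16 (quasi-likelihood, robust) on the spike-in size factors or TMM, for genes with a normalized mean of at least 10. The SE of an edgeR change is its size divided by the square root of the F statistic. FPKM was tested with limma 3.58.1 (trend) on log2(FPKM + 1), for genes with a mean of at least 10 and transcripts of at least 1, after a median-of-ratios rescaling. A fold on this scale understates the change of low genes. diffSplice tested transcript use. p-values are two-sided and Benjamini-Hochberg adjusted over all features tested, with a threshold of 0.05. Each fit was tested on simulated data. On the spike-in scale all genes share 1 size factor per library, so their errors are not independent.

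The members and gene lists were chosen with earlier results of these data known. Named were all members, AATF, the 5 genes most like the members' mean profile and, of each list, the most abundant gene and the called gene with the smallest p in each direction. SON, HNRNPC, NXT1, DDX39A and RPS6KB1, called members outside this rule, were named after their values were seen. SRSF10 was left out of FPKM tests. Alternatives were other scalings, minimums and pseudocounts, DESeq2 1.42.0, a replicate block and leaving out libraries.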

Additional observations from a re-analysis of the deposited data

How the results depend on the processing

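Against the spike-ins, all 10 SR genes were called lower by edgeR, by DESeq2 and without a minimum. Among all genes, 10541 of 12546, 10691 of 12546 and 10545 of 15674 were called lower in these fits. With the genes as the scale, 2 were called with TMM, 2 with the median of ratios and 1 with the upper quartile. Of 12546 genes, 1882, 1940 and 1431 were called lower in these fits. SRSF5 changed sign, to 0.18 with TMM, 0.18 with the median of ratios, 0.26 with the upper quartile and 0.15 with TMM and the block. Leaving out a siControl library gave 10 calls each time, where 8251 to 11713 of all genes were called lower. Without a siChe-1 library, 1 is left, and it is assumed to vary like siControl. The changes of the members then ranged from -1.72 to -1.07, and without siChe-1 2 fewer members were called, as given above. Deviations from the group mean correlated at 0.163 for replicate number 1 and 0.181 for number 2. With 2 siChe-1 libraries each deviation is the negative of the other. The crossed pairs are thus fixed at -0.163 and -0.181, and the 2 values are not independent. Both groups share only these 2 replicate numbers, too few pairs to treat the libraries as paired. With the numbers as a replicate block, edgeR called 0 of 10 on the spike-in scale and 2 genes in all. At an unadjusted p of 0.05, 5 members passed there, and the share of all genes is not given here. The block was also combined with TMM, an alternative chosen after seeing the data. It gave 2 of 10, where 1988 of 12546 genes were called lower. On TMM-scaled reads 2 were called. Leaving out a siControl library, also added later, gave 0 to 4, where 1339 to 2149 of all genes were called lower. On FPKM, 0 were called (3 at an unadjusted p of 0.05, with no share of all genes given), against 1 (SRSF2) without a minimum and 1 with deposited scaling. Among all genes, 948 of 6285 were called lower on FPKM, 1579 of 12075 without a minimum and 1279 of 6285 with deposited scaling. No SR transcript was called, for level or for use, under any alternative run. The causes were not tested.

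Values that no test called changed sign as follows. SRSF6 on FPKM went to -0.050 with a minimum of 1, -0.064 without a minimum, -0.082 with deposited scaling, -0.064 with the median of ratios over all genes, and between -0.045 and 0.067 when a library was left out. SRSF11 ranged from -0.21 to 0.078 when a library was left out. With deposited scaling, 4 transcripts turned negative: SRSF11 NM_001190987 (-0.078), SRSF1 NM_001078166 (-0.064), SRSF2 NR_036608 (-0.049) and SRSF6 NM_006275 (-0.056). Leaving out a library, transcript levels changed by -0.14 to 0.19 for SRSF11 NM_001190987, -0.25 to 0.0090 for SRSF11 NM_004768, -0.64 to 0.57 for the assembled SRSF1 form, -0.065 to 0.17 for SRSF1 NM_001078166, -0.50 to 0.37 for SRSF1 NR_034041, -0.082 to 0.041 for SRSF2 NM_003016, -0.075 to 0.17 for SRSF2 NR_036608, -0.046 to 0.11 for SRSF6 NM_006275 and -0.18 to 0.048 for SRSF3 NR_036610. Transcript use ranged from -0.15 to 0.24 for SRSF5 NM_001039465 (-0.24 to 0.15 for NM_006925), -0.64 to 0.88 for the assembled SRSF1 form, -0.56 to 0.70 for SRSF1 NR_034041, -0.22 to 0.27 for SRSF7 NM_001031684 (-0.27 to 0.22 for NM_001195446) and -0.0095 to 0.25 for SRSF6 NM_006275 (-0.25 to 0.0095 for NR_034009).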
